A study of Mus musculus with 9 samples.

Results

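A set of 261 circRNA probes was low in mouse liver after ischemia/reperfusion (I/R) and high in both normal (N) and postconditioned (IPO) liver, among 14236 circRNA probes on the array. The members were chosen by measured values in these same 9 arrays. Each member had to be well above background on all 9 arrays, with its highest I/R value below its lowest N and IPO value. Its mean I/R level also had to lie at least 1 log2 unit, or 2-fold, below both other means, and its range over the 3 N arrays had to stay under 1.5 log2 units. The I/R contrasts of the members are therefore a description, and no test of them is given. All mice were male C57BL/6 mice, provided at 8 weeks of age, and total RNA from 9 frozen livers was used, 3 per group. In the N group the abdomen was opened and liver vessels were left unclamped. I/R mice had partial hepatic ischemia for 1 h with reperfusion for 4 h. IPO mice had I/R with postconditioning, in which blood flow was alternately stopped and released for 5 s each in 3 rounds ahead of full reperfusion. The methods give the times of 1 h and 4 h under the I/R group. RNase R, an enzyme that digests linear RNA, was applied to all samples before Cy3 labelling, so circular RNA was enriched in every group.

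CircRNAs are closed loops made when a downstream splice donor joins an upstream splice acceptor of the same transcript. They have no free ends, resist exonucleases and are long-lived compared with most linear RNAs, and their level is set by transcription of the host gene, by backsplicing and by loss of the RNA or of the cells that hold it. Some bind miRNAs. In the liver, ischemia followed by reperfusion injures hepatocytes and activates Kupffer cells, the resident macrophages, and postconditioning interrupts the early reperfusion phase. The array measures bulk tissue, so fewer cells of a type and less circRNA per cell cannot be told apart. Each member is named by its probe number, and its circRNA name, host gene, position and sequence were not used here. None of the 44 other probes whose accession matched a RefSeq symbol belonged to the listed liver cell markers, so the tissue label was not checked against markers.

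The I/R arrays were uneven, and this touches every value below. I/R 1 and I/R 2 were each scanned alone on later days, whereas I/R 3 shared scan 1 with the 3 N arrays, IPO 1 and IPO 2. IPO 3 was also the single array of its scan. Only 8088 circRNA probes passed as well above background for I/R 1 and 5489 for I/R 2, against 13207 for I/R 3 and 12097 to 12661 for each N and IPO array. Array I/R 1 had a lowest detected log2 level of 4.22 and array I/R 2 one of 5.27, where the other 7 arrays had 1.30 to 2.39. All levels below are log2 processed signals after quantile normalization over the 9 arrays, and levels of different probes are not compared as amounts of RNA. With 3 arrays in each group, precision is limited by their number.

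Across the 261 members, the median level was 8.13, 8.17 and 8.46 on N 1, N 2 and N 3. The I/R arrays 1 to 3 had 6.59, 6.70 and 6.36, and the IPO arrays 1 to 3 had 8.16, 8.63 and 8.73. The 3 I/R medians were thus the lowest of the 9, while the N and IPO medians overlapped. Over the 5262 probes detected on all 9 arrays with no outlier spot, the same medians lay between 6.65 and 6.83 on every array. The median difference I/R minus N of the members was -1.49 on the log2 scale, a 2.82-fold higher level in N, with quartiles of -1.92 and -1.21 and extremes of -4.35 and -1.01. The median difference IPO minus I/R was 1.72, or 3.29-fold, with quartiles of 1.35 and 2.24. Among the probes detected on all 9 arrays these medians were 0.22 and -0.25. A separation of every I/R value from every N and IPO value was met by 468 of them, or 8.89%. The rule itself fixes this separation for the members.

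The size of the decrease varied widely among members. The decrease from N to I/R reached 1.5 log2 units in 130 members, 2 units in 59 and 3 units in 13. The gap between the highest I/R value and the lowest N or IPO value had a median of 0.64. It exceeded 1 in 69 members, 2 in 11 and 3 in 4, and was under 0.2 in 29. In the 87 members with the lowest N levels, 5.98 to 7.79, the median difference I/R minus N was -1.30. It was -1.60 in the next 87 and -1.72 in the 87 brightest, from 8.86 to 17.16. On I/R 1 and I/R 2 a decrease can be measured only down to the lowest detected level. The part of this limit in the 3 medians was not tested. On I/R 2, 95 of the 261 members lay within 1 log2 unit of the lowest detected level, and on I/R 1, 8 did.

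ASCRP4009158 had the widest gap, 3.87. It read 11.08, 11.42 and 11.34 on N 1 to N 3, 6.94, 6.77 and 7.21 on I/R 1 to I/R 3, and 11.82, 11.81 and 11.15 on IPO 1 to IPO 3. Its 3 I/R values lay close together, with an SD of 0.22, and its N and IPO values overlapped. Its mean in N was 19.8-fold that in I/R, and its mean in IPO was 24.6-fold.
ASCRP4008701 read 10.45, 10.70 and 11.83 in N, 6.68, 6.72 and 6.52 in I/R, and 10.23, 11.43 and 11.64 in IPO. It had the largest decrease of all members, 4.35 log2 units (20.4-fold), and its 3 I/R values again agreed within 0.20. Within N the level varied more than within I/R, with N 3 above the others by over 1 unit.
ASCRP4007011 read 11.24, 11.54 and 11.11 in N, 6.67, 6.62 and 7.94 in I/R, and 11.92, 11.95 and 11.30 in IPO. Here I/R 3 was higher than the other I/R arrays by over 1 unit, and still 3.17 below the lowest N or IPO value. Its IPO mean was 25.1-fold its I/R mean.
ASCRP4012139, the last of the 4 members with a gap over 3, read 10.88, 11.19 and 10.70 in N, 7.37, 7.46 and 7.11 in I/R, and 10.75, 11.998 and 10.54 in IPO. Its mean in N was 12.2-fold that in I/R.

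The next 6 by gap were separated by 2.08 to 2.87 units. ASCRP4014130 read 9.77, 10.31 and 9.65 in N, 6.66, 6.20 and 6.36 in I/R, and 9.81, 10.75 and 9.54 in IPO. ASCRP4010901 read 10.75, 10.88 and 10.13 in N, 5.78, 6.83 and 7.55 in I/R, and 10.46, 11.51 and 10.16 in IPO. In both, the order of arrays was the same within N and within IPO, with array 2 highest and array 3 lowest.
ASCRP4000771 read 8.10, 8.43 and 9.35 in N, 5.0, 5.47 and 4.37 in I/R, and 8.02, 8.73 and 9.50 in IPO. ASCRP4008235 read 8.06, 8.26 and 8.77 in N, 5.38, 5.48 and 5.62 in I/R, and 7.74, 8.80 and 8.89 in IPO. Here array 3 was the highest and array 1 the lowest in N and in IPO.
ASCRP4012442 read 10.71, 10.40 and 10.63 in N, 7.71, 8.11 and 8.20 in I/R, and 10.28, 10.95 and 10.78 in IPO, a decrease of 5.96-fold with ranges of at most 0.68 in each group. ASCRP4005680 read 9.33, 9.56 and 8.65 in N, 5.90, 5.57 and 4.36 in I/R, and 8.06, 8.68 and 8.55 in IPO. Its decrease was the fourth largest, 15.0-fold, and its IPO mean was the farthest below N of all members, by 0.75.

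The brightest member, ASCRP4012684, read 17.26, 17.26 and 16.96 in N, 15.45, 15.89 and 16.56 in I/R, and 17.43, 17.42 and 17.26 in IPO. Its N mean was 2.28-fold its I/R mean. ASCRP4005038 read 14.77, 14.77 and 14.93 in N, 11.76, 13.01 and 14.00 in I/R, and 14.28, 14.93 and 14.60 in IPO. In both of these, I/R 1 fell most and I/R 3 least.
ASCRP4014146 went the other way, with 13.75, 13.70 and 15.15 in N, 11.47, 11.73 and 10.11 in I/R, and 14.05, 14.59 and 15.16 in IPO. Its I/R 3 value was the lowest, and its N mean was 8.56-fold its I/R mean. ASCRP4003909 had a similar order, with 11.51, 11.92 and 12.52 in N, 11.12, 10.85 and 9.51 in I/R, and 11.95, 12.75 and 12.99 in IPO.
ASCRP4006855 read 11.71, 11.69 and 12.37 in N, 7.84, 8.76 and 10.21 in I/R, and 13.55, 12.05 and 12.66 in IPO. Its I/R values spread over 2.37 units, and its N mean was 7.92-fold its I/R mean.
At the dim end, ASCRP4004925 read 5.92, 6.02 and 6.0 in N, 5.54, 5.62 and 3.17 in I/R, and 6.18, 6.19 and 6.59 in IPO. ASCRP4009903 read 5.96, 5.67 and 6.56 in N, 5.41, 5.60 and 3.31 in I/R, and 6.29, 6.60 and 7.37 in IPO. In these dim probes the mean decrease was carried by I/R 3, while I/R 1 and I/R 2 lay under 1 unit below the N mean. Their N means were 5.98 and 6.06, and the lowest detected level on I/R 2 was 5.27. A detected value on I/R 2 could therefore not lie 1 unit below these means. The other 3 of the 5 dimmest, ASCRP4013566, ASCRP4013790 and ASCRP4001010, had N means of 6.31, 6.40 and 6.44 and decreases of 1.01, 1.16 and 1.07 log2 units.

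The members differed in which I/R array was lowest. I/R 3 was the lowest in 169 of 261 members (64.8%, against 57.4% of the probes detected on all 9 arrays). I/R 1 was the lowest in 68 (26.1%, against 31.1%) and I/R 2 in 24 (9.20%, against 11.5%). The median difference from the N mean was -1.39 for I/R 1, -1.32 for I/R 2 and -1.92 for I/R 3, where the same medians over the probes detected on all 9 arrays were 0.31, 0.33 and -0.08. A decrease of at least 1 unit from the N mean was seen in 185 members for I/R 1, in 198 for I/R 2, in 237 for I/R 3 and for all 3 arrays in 143. I/R 1 and I/R 2 lay within 0.5 units of each other in 214 members. I/R 3 was at least 1 unit below their mean in 87 members, at least 1 unit above it in 26 and within 0.5 units of it in 85. The median of I/R 3 minus that mean was -0.57 over the members and -0.47 over the probes detected on all 9 arrays.
The widest case was ASCRP4007324, with 10.34, 10.47 and 9.54 in N, 5.59, 6.19 and 9.46 in I/R, and 10.26, 10.80 and 9.60 in IPO. On I/R 3 this probe was 0.08 below the lowest N or IPO value, so its decrease rests on I/R 1 and I/R 2. ASCRP4004874 read 8.08, 8.61 and 8.55 in N, 4.94, 5.92 and 8.03 in I/R, and 8.22, 9.93 and 8.06 in IPO, the same pattern.
In ASCRP4011368 I/R 3 was instead the lowest, with 7.45, 7.48 and 8.45 in N, 5.85, 5.48 and 3.00 in I/R, and 8.10, 7.84 and 8.94 in IPO. All 3 I/R values were low there, with a gap of 1.60 to the lowest N or IPO value.
At the other extreme, ASCRP4004423 read 5.46, 5.46 and 5.45 on I/R 1 to I/R 3, against 7.08, 7.30 and 6.44 in N and 7.49, 8.13 and 7.85 in IPO. ASCRP4007774 read 7.10, 7.12 and 7.10 in I/R, 8.10, 8.21 and 8.50 in N, and 8.06, 8.86 and 8.58 in IPO. ASCRP4009363 read 7.10, 7.13 and 7.07 in I/R, 8.15, 8.35 and 7.96 in N, and 8.10, 8.74 and 7.97 in IPO. In these 3 members the I/R arrays gave nearly the same level after quantile normalization, which evens out differences in brightness between arrays. The I/R 2 value of ASCRP4004423 lay near the lowest detected level of that array, 5.27.

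Scan and group are partly confounded, so the members were also described within scan 1, which holds 3 N arrays, I/R 3 and 2 IPO arrays. There the median difference I/R minus N was -1.92 and IPO minus I/R was 2.0, and 231 of the 261 members lay at least 1 unit below both the N and the IPO mean. With 1 I/R array there is no test. Before any normalization between arrays, I/R 3 was the brightest array, with a median processed intensity of 237 over the probes detected on all 9 arrays, against 94.0 to 139 on the N arrays. The members had a median of 191 on I/R 3 and of 355, 243 and 415 on N 1, N 2 and N 3. In 170 members (65.1%) the unnormalized I/R 3 intensity was below that of all 5 N and IPO arrays of scan 1. Over all probes detected on the 9 arrays this share was 7.94%. For I/R 1 and I/R 2 the median unnormalized intensity of the members was 36.3 and 35.2. The members were selected on these same intensities after normalization, so a low I/R 3 value among them is set by the rule, and the part of scan and brightness in it was not tested.

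The rule was next applied with an I/R array left out, so that the values of that array were not used for the choice, although all 9 arrays had been quantile normalized together. Without I/R 3, 317 probes met the rule on the other 8 arrays. On I/R 3, 201 of them (63.4%) were below every N and IPO value, against 39.4% of all 5263 probes detected on the other 8 arrays. Another 60 (18.9%) were above every N and IPO value, against 37.9% of all. The median difference of these 317 probes on I/R 3 from the N mean was -1.04, with quartiles of -2.07 and 0.09, so a sizeable part of them was not low on that array. Without I/R 2, 440 probes were chosen, and 417 of them (94.8%) were below every N and IPO value on I/R 2, against 26.2% of all probes detected on the other 8 arrays. Of the 440, 145 were not well above background on I/R 2, where their values are bounds only, and 139 of these are among the 417. Over the 295 that were detected there, which brings the array back into the choice, the share was 94.2%, against 19% of all probes detected on the 9 arrays. Without I/R 1, 328 were chosen, and 283 of them (86.3%) were below every N and IPO value on I/R 1, against 23.5% of all probes detected on the other 8. Over the 324 detected there the share was 86.1%, against 22.4%. The chosen probes had been selected for high N and IPO values and the probes behind each background share had not, so a difference between the shares is in part set by the choice. I/R 1 and I/R 2 also share late scans and low signal, and the part of either was not tested.

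The comparison of IPO with N is the contrast that the rule did not set, although it required both groups to lie above I/R and the N values to lie close together. No member passed an adjusted p below 0.05 in limma, where 0% of the 12813 tested probes passed and the lowest adjusted p was 1. At an unadjusted p below 0.05 there were 9 of the 261 members, against 0.866% of all tested probes, and all 9 had the higher mean in IPO. The median difference IPO minus N of the members was 0.20 on the log2 scale, or 1.15-fold, with quartiles of 0.02 and 0.40, and over the probes detected on all 9 arrays it was -0.02. IPO had the higher mean in 202 of 261 members (77.4%), against 47.6% of the probes detected on all 9 arrays. In 213 members the means were within 0.5 units, or 1.41-fold. The IPO arrays differed in this. IPO 1 was the lowest IPO array in 172 members, and its median of 8.16 was no higher than those of N 2 and N 3. IPO 3, scanned alone, had the highest median, and within scan 1 the median difference IPO minus N was 0.13. It was 0.35 without IPO 1 and 0.09 without IPO 2. The number of members at an unadjusted p below 0.05 was 4 without IPO 3, where 0.445% of all tested probes passed, and 14 without N 3, where 2.22% did. It was 19 without I/R 3 (3% of all), 21 with the I/R arrays left out of the fit (4.96%) and 47 with array weights (10.1%). None of these fits gave an adjusted call.
The groups overlapped in 242 members. Every IPO value was above every N value in 17 (6.51%, against 5.14% of tested probes), and below in 2 (0.766%, against 5.05%). The 2 below were ASCRP4000104, with 7.48, 7.22 and 7.24 in N and 7.11, 6.90 and 7.15 in IPO, and ASCRP4011860, with 10.25, 10.43 and 10.39 in N and 10.13, 10.04 and 10.21 in IPO. Both were named after their values were seen, and both differences were small, at -0.27 and -0.23.

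A 2-fold difference with an unadjusted p below 0.05 was reached by 5 members, all with IPO higher, against 0.437% of tested probes in that direction. In either direction 0.523% of tested probes passed. The count of members was 3 without IPO 3 (0.367% of all tested probes), 10 without IPO 1 (0.593%) and 8 without N 3 (1.87%). ASCRP4003673 read 6.95, 7.22 and 8.17 in N, 5.75, 6.40 and 6.71 in I/R, and 9.55, 8.64 and 9.05 in IPO. IPO exceeded N by 1.64 (standard error 0.43, adjusted p = 1 from limma), more than the fall from N to I/R, 1.16. ASCRP4012616 read 8.35, 8.74 and 8.47 in N, 6.06, 6.52 and 6.46 in I/R, and 9.96, 10.45 and 9.30 in IPO. IPO exceeded N by 1.38 (standard error 0.35, adjusted p = 1 from limma), and its IPO mean was 11.8-fold its I/R mean.
ASCRP4008297 read 9.74, 10.21 and 8.97 in N, 7.62, 7.41 and 5.64 in I/R, and 10.90, 11.08 and 11.24 in IPO. The difference was 1.43 (standard error 0.53, adjusted p = 1 from limma). The other members of the 5, ASCRP4010363 and ASCRP4001089, named after their values were seen, exceeded N by 1.13 and 1.12. In all 5, each IPO value was above each N value, yet none passed the adjustment. Apart from ASCRP4005680, described above, the IPO mean lay farthest below N in ASCRP4008903, with 7.83, 8.28 and 8.62 in N, 6.45, 6.65 and 6.59 in I/R, and 8.14, 7.04 and 7.56 in IPO. ASCRP4010805 followed, with 9.85, 9.73 and 8.73 in N, 7.24, 7.44 and 7.58 in I/R, and 9.08, 8.42 and 8.83 in IPO. Their differences of -0.66 each had adjusted p = 1 from limma, and their N and IPO values overlapped.

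Within N, 165 members (63.2%) were highest on N 3, against 45.0% of the probes detected on all 9 arrays. Within IPO, 132 (50.6%) were highest on IPO 3, against 40.0%, and 172 (65.9%) were lowest on IPO 1, against 42.3%. The range within a group had a median of 0.63 in N, where the rule sets a limit, 0.80 in IPO and 1.05 in I/R. The same medians over the probes detected on all 9 arrays were 0.45, 0.54 and 1.22. These ranges were wider than over those probes in N and IPO, and narrower in I/R. The rule also bounds the I/R values, since each must lie below the lowest N and IPO value. The members closest to the N limit were ASCRP4012944, with 10.78, 10.60 and 12.08 in N, 10.004, 10.40 and 9.58 in I/R, and 10.95, 11.50 and 11.86 in IPO, then ASCRP4014146, above, and ASCRP4009901, with N values of 10.09, 9.51 and 10.94. Just outside lay ASCRP4003342, ASCRP4005836 and ASCRP4011226, with N ranges of 1.52 to 1.56 and decreases of 1.32, 2.32 and 1.71.

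At the limit of 1 unit on the means, ASCRP4013566, ASCRP4004953 and ASCRP4012871 were just inside, with smaller mean differences of 1.01 each. ASCRP4012871 shows how close such a member can be, with 10.60, 10.79 and 11.22 in N, 10.51, 10.41 and 8.65 in I/R, and 10.71, 11.02 and 11.46 in IPO. ASCRP4003830, ASCRP4002382 and ASCRP4006847 were just outside, with smaller mean differences of 0.99 each. The single values were separated in all 3, with gaps of 0.54, 0.41 and 0.18. ASCRP4003830, for example, had 7.08, 7.11 and 7.48 in N, 6.21, 6.03 and 6.46 in I/R, and 7.00, 7.43 and 7.60 in IPO. On the separation of single values, ASCRP4013790 was the closest inside, by 0.02, and ASCRP4003946 the closest outside, with its highest I/R value 0.005 above its lowest IPO value. ASCRP4003946 met the rule when the 22 circRNA spots flagged as outliers were kept, which gave 262 members.

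The size of the group depended on detection on the dim I/R arrays. With detection asked only on the 6 N and IPO arrays, 825 probes met the rest of the rule, so 564 more than the members. Of the 825, 815 were detected by I/R 3, 417 by I/R 1 and 266 by I/R 2. The 564 others were dimmer in N, with a median level of 5.24, against 8.25 for the members. On I/R 3 their median difference from the N mean was -1.42, and it was at least 1 unit in 418 of them. Their levels on the arrays where they were not well above background are bounds only. The mirrored rule, for probes higher in I/R than in N and IPO, was met by 346 probes.

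The members were bright probes. Their median N level was 8.25, against 6.70 for the probes detected on all 9 arrays. In N, 65.1% of them lay above the upper quartile of those probes, 7.81, and 0% below the lower quartile, 5.78. Since a member must fall by at least 1 unit and stay above the I/R 2 background, the rule leaves little room for dim probes. The members were spread over the array, with quartiles of 53 and 144 for the row and of 26 and 58 for the column, and all probes detected on the 9 arrays, members included, had quartiles of 51 and 144, and of 21 and 61. The median local background under the members was the same as under all those probes on each array, 17 for N 1, 27 for I/R 1, 34 for I/R 2 and 17 for I/R 3, for example. The part of this background in the I/R values was not tested. In 9 cases the next probe number was also a member. No such count over the other probes was made, so this number is not read as grouping. Which members share a host gene or an exon was not tested.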

How the data were processed

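CircRNAs were measured in RNase R-treated liver RNA on 9 single-colour Cy3 arrays, 3 each for the N, I/R and IPO groups, which were taken from the sample labels. The authors deposited Agilent Feature Extraction output (version 11.0.1.1), and the values used are the processed intensity of each spot, which that software had corrected for background, the median raw intensity and the median local background intensity. From the deposited intensities, log2 values were taken in R 4.3.3. The 22 circRNA spots with an outlier flag were treated as missing, and quantile normalization over 9 arrays used all 15176 spots that were not controls, with limma 3.58.1.

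The rule was applied to these values. IPO and N were compared with lmFit and eBayes in 1 fit of all groups, over the 12813 circRNA probes that at least 3 of 9 arrays detected well above background, with Benjamini-Hochberg adjustment over all of them. The methods' thresholds, a 2-fold change with an unadjusted p under 0.05, were also counted. Each p measures only the spread between samples within groups, pooled over all 3 groups, so the uneven I/R arrays enter the standard error of IPO against N. Precision is limited by the number of arrays.

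The members, lists and tests were chosen with earlier results of these data known. Named members are those with the largest gaps (10), largest decreases (5), highest and lowest N levels (5 each), the 3 closest to each limit, the 3 largest IPO minus N differences in each direction, and the 3 widest and 3 narrowest in I/R. Alternatives were 75th percentile scaling, normexp (offset 50), raw signal, outlier spots kept, each array left out, other limits and filters, the replicate number or scan as a block, array weights and a fit on IPO and N alone. The replicate numbers did not pair the samples, since deviations of same-numbered arrays correlated at -0.47 to 0.18, with 2 of 9 pairs above 0.1.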

Additional observations from a re-analysis of the deposited data

How the results depend on the processing

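The number of members was 261. It was 150 with normexp background correction (140 of them members), 843 with detection on at least 3 arrays, 825 with detection on the N and IPO arrays only, 396 and 117 with means at least 0.5 and 1.5 apart, and 252 to 440 with each array left out, the highest without I/R 2. On the arrays of scan 1 alone, an alternative chosen after seeing the data, 1553 probes met the rule, 231 of them members. The rule is weaker there, since it asks for detection and separation on 1 I/R array, I/R 3, and not on I/R 1 and I/R 2. With 75th percentile scaling there were 216 members, with the raw signal 200 and without a limit on the N range 309, which is also the number without the separation of single values. The median I/R minus N was -1.05 with normexp, -1.22 with the raw signal and -1.92 on scan 1, and the median IPO minus I/R was 1.23, 1.42 and 2.0. Of the named members' 490 values for each I/R contrast, 45 of I/R minus N and 43 of IPO minus I/R moved by more than the spread between replicates, under normexp, scan 1 alone, the raw signal or 75th percentile scaling. The smallest were -0.20 and 0.16, both of ASCRP4004953 on scan 1, and none changed sign, nor did a median over the members. With an array left out, and on scan 1 alone, the rule itself fixes the signs of both I/R contrasts. The median IPO minus N stayed between 0.09 and 0.35. All-probe medians moved by under 0.1 with the scaling. No member passed the adjusted threshold in IPO vs N in any alternative fit, where 4 to 47 members, and 0.367% to 10.1% of all tested probes, had an unadjusted p below 0.05. The members with a 2-fold difference and an unadjusted p below 0.05 numbered 5 (0.523% of all tested probes). They numbered 3 with normexp (0.0546%), 3 without IPO 3 (0.367%) to 10 without IPO 1 (0.593%) with each array left out, and 8 without N 3 (1.87%). The replicate block gave 5 (0.492%) and scan as a block 4 (0.89%). The causes were not tested. Signal over background on I/R 1 and I/R 2 limits how far a decrease can be measured.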
